A study of Craterostigma plantagineum with 12 samples.

Results

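Light-harvesting chlorophyll proteins of Craterostigma plantagineum leaves were followed through drying and rewatering in 41 of the 48045 contigs of the deposited table. Members were the contigs whose green-plant description names a chlorophyll a-b (or a/b) binding or light-harvesting protein, leaving out early light-induced proteins and the desiccation protein DSP-22. Contigs are pieces of assembled transcript, and more than 1 of them may come from the same gene. The species is a resurrection plant: its leaves dry out almost fully and revive on watering. RNA of leaves was sequenced in 4 states with 3 libraries each, each from a separate leaf pool of 6 to 9 plants. Leaves at 60% relative water content (RWC) came from plants left to dry in their pots for 3 to 4 days, and leaves at 2% RWC from plants dried for 15 days. Rehydrated leaves came from plants that had dried for 15 days and then lay under water for 24 h, and fresh leaves at 100% RWC from plants that were not dried. All plants were propagated vegetatively and kept under 14 h of light and 8 h of dark. No watered plants of matching time were used here, so water content and time without water cannot be told apart, and p-values measure the spread between pools.

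Light-harvesting proteins are encoded in the nucleus and sit in the thylakoid membrane of the chloroplast, where they bind chlorophyll a, chlorophyll b and carotenoids and pass light energy to the reaction centres. Lhcb1, Lhcb2 and Lhcb3 form the trimers of LHCII, the main antenna of photosystem II. The minor antenna proteins CP29 (Lhcb4), CP26 (Lhcb5) and CP24 (Lhcb6) link these trimers to the core of photosystem II, and Lhca proteins form a belt on photosystem I. Craterostigma plantagineum keeps much of its chlorophyll when dry, and absorbed light that cannot be used in dry leaves is a known source of damage. LIL3 and OHP2 are related thylakoid proteins that are not antenna proteins in the strict sense.

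The members comprised 12 contigs of LHCII trimers (6 Lhcb1, 5 Lhcb2 and 1 Lhcb3), 4 of the minor antenna (2 CP29, 1 CP26 and 1 CP24) and 16 of the photosystem I antenna (4 Lhca2, 5 Lhca3, 3 Lhca4, 1 Lhca5 and 3 Lhca6). Another 8 were LHC-like (6 LIL3 and 2 OHP2), and 1 contig described as LHCII type 1 had Lhcb7 as its Arabidopsis hit. Most classes were read from the descriptions and, where these carry no type, from the deposited Arabidopsis hit. The contigs Cp_V2_contig_1412, Cp_V2_contig_296 and Cp_V2_contig_757 had neither, so their class, Lhca2, is uncertain. They share their description with Cp_V2_contig_4647, which had a hit and was classed as Lhca2. Contigs were 302 to 1173 bases long, with a median of 473. In 30 members at least 98% of the reads were unique to the contig, and in 3 members fewer than 90% were. These 3 were the OHP2 contig Cp_V2_contig_11763 (21.2%) and the Lhcb1 contigs Cp_V2_contig_8281 (74.0%) and Cp_V2_contig_1704 (81.3%), whose values are uncertain for that reason.

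Libraries held 14784251 to 21271288 reads. Markers of mesophyll, the photosynthetic tissue of the leaf, were contigs of Rubisco small subunit, Rubisco activase and chloroplast carbonic anhydrase. They took 1.13 to 2.80% of reads in fresh libraries, 0.139 to 0.174% at 60% RWC, 0.129 to 0.152% at 2% RWC and 0.906 to 1.23% after rehydration. The leaf tissue named by the labels thus had these transcripts in every library. They come from photosynthesis genes, so their share of reads does not measure the share of mesophyll cells. Epidermis markers took 0.131 to 0.194% in fresh libraries, 0.0793 to 0.0865% at 60% RWC, 0.0672 to 0.0737% at 2% RWC and 0.128 to 0.140% after rehydration. Vascular markers took 0.0379 to 0.0520% in fresh libraries, 0.0244 to 0.0286% at 60% RWC, 0.0270 to 0.0343% at 2% RWC and 0.0245 to 0.0290% after rehydration, and guard cell markers at most 0.00218% in any library. At 60% RWC, 16 of 16 mesophyll, 51 of 80 epidermis, 11 of 45 vascular and 1 of 5 tested guard cell contigs were lower than in fresh leaves, and 0, 1, 4 and 0 were higher by edgeR. DESeq2 called 16, 57, 12 and 2 of these marker contigs lower and 0, 1, 4 and 0 higher. Of all tested contigs 23.3% were lower and 15.6% higher in this comparison, so the vascular and guard cell counts lie near the background. The part of these shifts in the antenna results was not tested. In bulk leaf RNA, fewer cells of a type and less RNA per cell cannot be told apart.

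The family as a whole took a large share of fresh leaf reads and a small share of dry leaf reads. Its share was 2.06, 3.03 and 0.898% in fresh libraries 1, 2 and 3, 0.474, 0.485 and 0.530% at 60% RWC, 0.436, 0.390 and 0.280% at 2% RWC, and 1.58, 1.38 and 1.03% after rehydration. Every dry library lay below every fresh library, and rehydrated libraries lay within the fresh range. The plot of read shares by library shows where the fresh libraries part. LHCII trimer contigs took 1.10, 1.78 and 0.283% of reads in the fresh libraries, so that fresh library 3 was at the level of the 60% RWC libraries (0.279, 0.282 and 0.301%). Photosystem I antenna contigs took 0.477, 0.686 and 0.294% in the fresh libraries, all above the 60% RWC libraries (0.0920, 0.0980 and 0.109%).

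**Figure D1:**
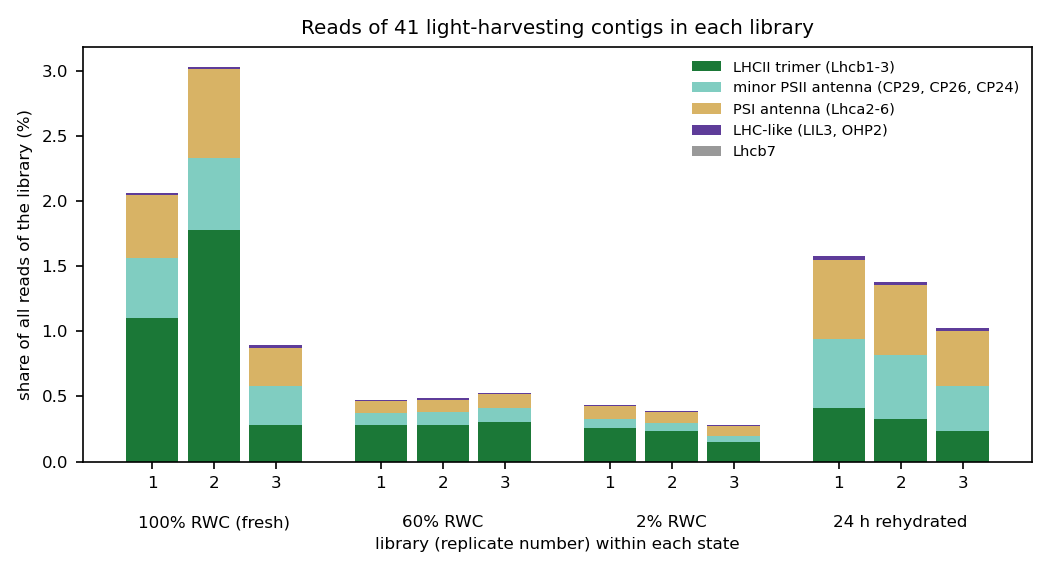
Share of all reads (%, vertical axis) taken by the 41 contigs in each of the 12 libraries (bars, grouped by state), split by antenna system. Fresh libraries span 0.898 to 3.03%, dry libraries 0.280 to 0.530% and rehydrated libraries 1.03 to 1.58%, and the LHCII trimer part is 0.283% in fresh library 3 and 1.78% in fresh library 2.

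The fresh pools differed from each other, within the family most widely in LHCII transcripts. Their libraries as a whole differed too. Between pairs of libraries of a state, the chi-square of contig read counts over its degrees of freedom was 71.6 to 88.0 for fresh leaves. It was 4.97 to 6.18 at 60% RWC, 6.38 to 14.0 at 2% RWC and 7.04 to 27.0 after rehydration. Whether LHCII contigs varied more than other contigs was not tested. The highest fresh library exceeded the lowest by a median of 2.30-fold over the 41 members, against 1.21-fold at 60% RWC, 1.55-fold at 2% RWC and 1.49-fold after rehydration. For LHCII trimer contigs that median was 6.14-fold, with library 3 lowest and library 2 highest in 12 of 12. For photosystem I antenna contigs it was 1.90-fold, with library 3 lowest in 15 of 16, and for the minor antenna 1.89-fold, with library 3 lowest in 4 of 4. The 8 LHC-like contigs did not follow this order: library 3 was lowest in 0 of them, and their median was 1.56-fold. Mesophyll markers also ran the other way, with 1.93, 1.13 and 2.80% of reads in fresh libraries 1, 2 and 3. Library 3 was also the lowest of its state in 37 of 41 members after rehydration and in 29 of 41 at 2% RWC, but in 2 of 41 at 60% RWC. Such counts were not made over all contigs. The labels do not say whether replicate numbers link pools of different states.

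Nearly all members were lower in dry than in fresh leaves, and most were already called lower at 60% RWC. At 60% RWC, 36 of 41 members were called lower than in fresh leaves and 0 higher, where 23.3% of all 46494 tested contigs were lower and 15.6% higher. Calls used edgeR's quasi-likelihood test at an adjusted p below 0.05 (Benjamini-Hochberg, over all tested contigs), and all 41 members passed the filter on low counts. At an unadjusted p below 0.05, 38 members were lower and 0 higher, and DESeq2 called 36 and 0. The median log2 fold of the members was -1.70, against -0.06 over all tested contigs. In RPKM, 34 members had all 60% RWC libraries below all fresh ones (82.9%, against 27.7% of tested contigs). By system, 16 of 16 photosystem I antenna, 4 of 4 minor antenna, 10 of 12 LHCII trimer and 5 of 8 LHC-like contigs fell, as did the Lhcb7 contig. Leaving out a fresh library, those that differed most, gave 35 to 37 members called lower and 0 higher.

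At 2% RWC, 38 of 41 members were called lower than in fresh leaves and 0 higher by edgeR, at backgrounds of 34.9 and 26.0% of tested contigs. At an unadjusted p below 0.05 the counts were 39 and 0, and DESeq2 gave 38 and 0. The members' median log2 fold was -1.87, against -0.22 over all tested contigs, and 36 members had all 2% RWC libraries below all fresh ones (87.8%, against 38.5%). This comparison and the one at 60% RWC share the fresh libraries. Against leaves at 60% RWC, 9 members were lower at 2% RWC and 2 were higher, at backgrounds of 25.0 and 19.5%. The share called lower was thus near the background, and the share called higher was below it. The count of lower members was 7 to 11 on leaving out a library and 9 to 13 under other settings. The median log2 fold in that step was -0.07 for members and -0.13 over all tested contigs. Across the 4 states, 40 of 41 members were called, at a background of 71.6%, and the exception was the Lhcb1 contig Cp_V2_contig_172 (adjusted p = 0.0544). The plot of folds against fresh leaves gives all members by class.

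**Figure D2:**
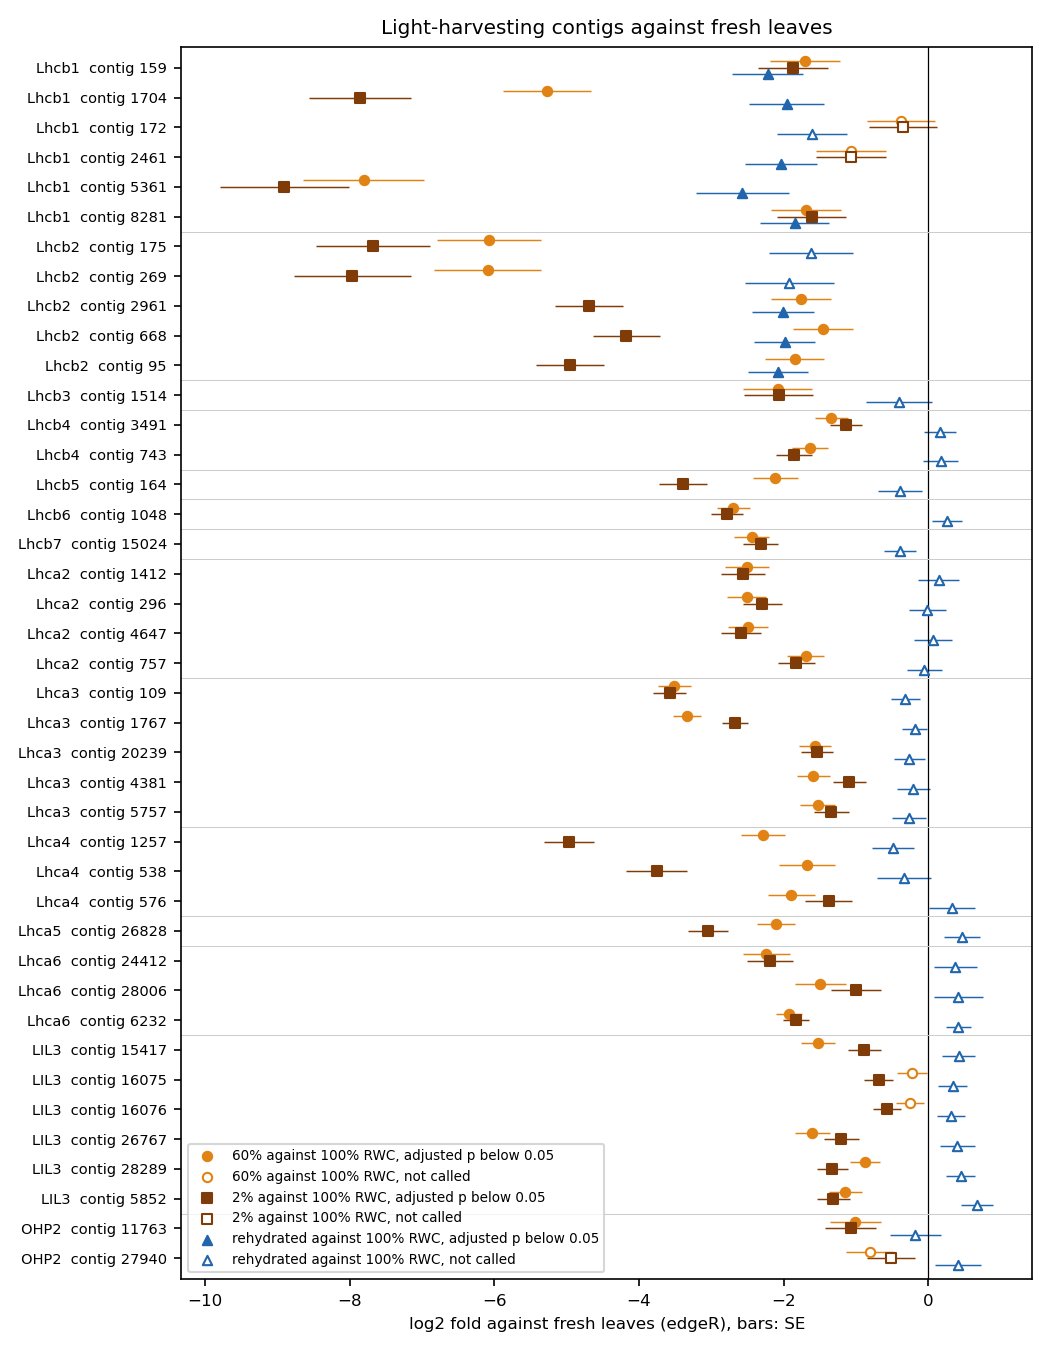
Log2 fold against fresh leaves (horizontal axis, edgeR; bars are SE) of the 41 contigs by class, at 60% RWC (circles), at 2% RWC (squares) and after rehydration (triangles); filled marks are called at an adjusted p below 0.05. The Lhcb1 and Lhcb2 contigs spread from -0.34 to -8.90 at 2% RWC, while after rehydration all filled marks belong to Lhcb1 and Lhcb2.

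Lhcb1 is the most abundant protein of LHCII, and its contigs ranged from ones that nearly vanished in dry leaves to ones that stayed abundant there. Cp_V2_contig_5361 had 927, 1447 and 122 RPKM (reads scaled for contig length and library total) in fresh libraries, 4.66, 2.44 and 2.92 at 60% RWC, 1.93, 0.722 and 1.78 at 2% RWC, and 196, 135 and 131 after rehydration. All dry libraries lay far below all others, on 17 to 38 reads per library at 60% RWC and 7 to 16 at 2% RWC. Its log2 fold was -7.81 at 60% RWC (SE 0.84, adjusted p = 3.78e-05), a 224-fold lower level, and -8.90 at 2% RWC (SE 0.89, adjusted p = 9.38e-06). Cp_V2_contig_1704, with a description of the same protein, had 576, 836 and 116 RPKM in fresh libraries, 10.1, 12.2 and 13.7 at 60% RWC, 2.34, 2.00 and 1.08 at 2% RWC, and 189.7, 134 and 111 after rehydration. Its dry states did not overlap with the fresh or rehydrated libraries or with each other. It fell by 5.28 on the log2 scale at 60% RWC (SE 0.61, adjusted p = 6.23e-05) and, at 2% against 60% RWC, fell by 2.58 (SE 0.61, adjusted p = 0.00545).

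The 2 Lhcb1 contigs at the highest levels differed in their calls: Cp_V2_contig_159 was called lower in both dry states and Cp_V2_contig_172 in neither. Cp_V2_contig_159, the member with the highest mean level, had 8627, 13550.1 and 2252 RPKM in fresh libraries, 2201, 2236 and 2422 at 60% RWC, 2259, 2042 and 1344 at 2% RWC, and 2411, 2152 and 1236 after rehydration. Fresh library 3 lay inside the range of every other state. The log2 fold was -1.70 at 60% RWC (SE 0.48, adjusted p = 0.0168) and -1.87 at 2% RWC (SE 0.49, adjusted p = 0.00607). The call at 60% RWC was lost without fresh library 2, without any 1 of the 60% RWC libraries and in a fit of the 2 states alone, with adjusted p from 0.000146 to 0.0713 over its alternatives. Cp_V2_contig_172 had 3737, 5960.5 and 953 RPKM in fresh libraries, 2512, 2416 and 2574 at 60% RWC, 2862, 2582 and 1630.2 at 2% RWC, and 1588, 1355 and 908 after rehydration. In the dry states it was therefore at the level of Cp_V2_contig_159 and inside the fresh range. Its log2 folds of -0.37 (SE 0.47, adjusted p = 0.565) and -0.34 (SE 0.47, adjusted p = 0.546) were not called, but without fresh library 3 they were -0.84 and -0.73 and were called lower (adjusted p = 0.0248 and 0.0309; over the alternatives 0.0248 to 0.912 and 0.0309 to 0.865). Of the other Lhcb1 contigs, Cp_V2_contig_8281 fell by 1.69 at 60% RWC (SE 0.48, adjusted p = 0.0162), and Cp_V2_contig_2461 was not called (log2 fold -1.07, adjusted p = 0.101).

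**Figure D3:**
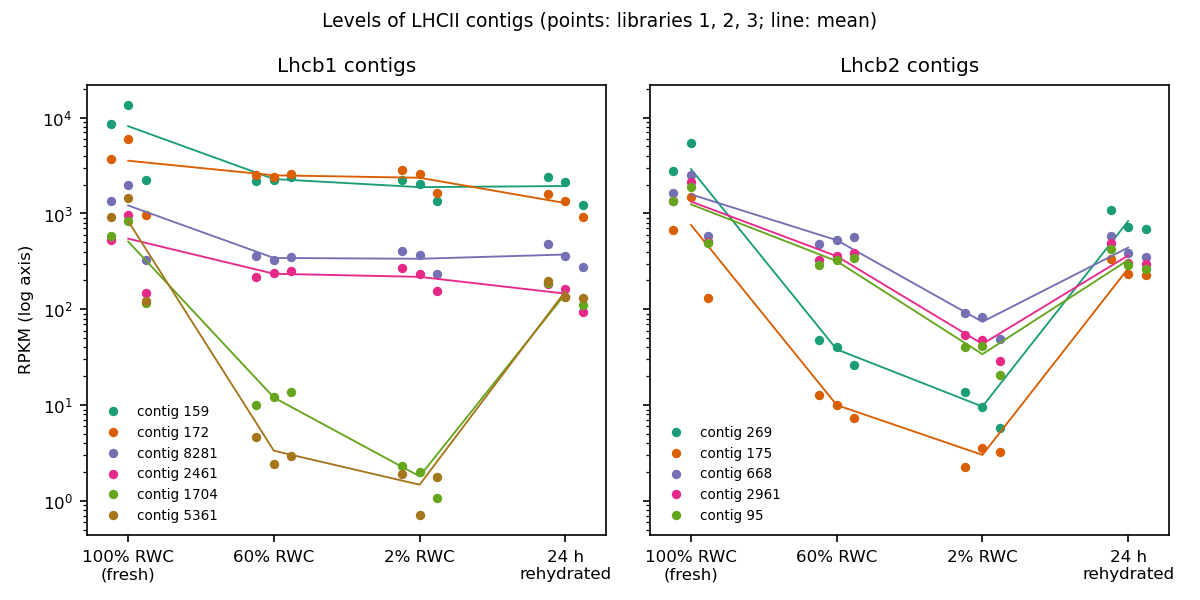
RPKM (log axis) of the 6 Lhcb1 contigs (left) and the 5 Lhcb2 contigs (right) by state; points are libraries 1, 2 and 3 from left to right and lines join the means. In dry leaves Cp_V2_contig_1704 and Cp_V2_contig_5361 lie at 0.722 to 13.7 RPKM while Cp_V2_contig_159 and Cp_V2_contig_172 lie at 1344 to 2862, and the Lhcb2 contigs part at 60% RWC and lie at 91.1 RPKM or less at 2% RWC.

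Lhcb2, the LHCII protein whose phosphorylation moves antenna between the photosystems, was lower in dry leaves in all of its 5 contigs, with folds that differed by step. Cp_V2_contig_269, at the highest mean level, had 2745, 5437 and 509 RPKM in fresh libraries, 47.8, 40.8 and 25.9 at 60% RWC, 13.6, 9.53 and 5.84 at 2% RWC, and 1086, 727 and 684 after rehydration. No dry library overlapped with a fresh or rehydrated one. Its log2 fold was -6.09 at 60% RWC (SE 0.74, adjusted p = 9.22e-05), 68.1-fold lower, and -7.96 at 2% RWC (SE 0.81, adjusted p = 1.03e-05). Cp_V2_contig_175 had log2 folds of -6.08 (SE 0.72) and -7.68 (SE 0.79). The other 3 contigs fell less at 60% RWC and then again. Cp_V2_contig_95 had 1349, 1888 and 497 RPKM in fresh libraries, 289, 325 and 339.9 at 60% RWC, 40.2, 41.1 and 20.7 at 2% RWC, and 426, 288 and 265 after rehydration. The 60% RWC libraries lay between the other drying states without overlap. The log2 fold was -1.84 at 60% RWC against fresh (SE 0.41, adjusted p = 0.00454) and -3.11 at 2% against 60% RWC (SE 0.43, adjusted p = 0.000212).

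Cp_V2_contig_2961 and Cp_V2_contig_668, also Lhcb2, were lower at both steps too. At 2% against 60% RWC their log2 folds were -2.93 (SE 0.44, adjusted p = 0.000353) and -2.72 (SE 0.43, adjusted p = 0.000525). The call of Cp_V2_contig_668 at 60% RWC against fresh (log2 fold -1.46, SE 0.42, adjusted p = 0.0169) was lost without library 1 or 2 of 60% RWC and in a fit of the 2 states alone, at an adjusted p of up to 0.0654 over its alternatives. Cp_V2_contig_269 was also lower at 2% than at 60% RWC (log2 fold -1.87, SE 0.63, adjusted p = 0.0304), a call lost without library 1 or 2 of 60% RWC or library 2 or 3 of 2% RWC, with adjusted p from 0.00141 to 0.106. Thus 4 of 5 Lhcb2 contigs were called lower in the second step of drying, against 1 of 6 Lhcb1 contigs, a difference between classes that was not tested. The single Lhcb3 contig Cp_V2_contig_1514, a protein found in trimers together with Lhcb1 and Lhcb2, had 729, 923 and 168 RPKM in fresh libraries, 127, 135 and 135 at 60% RWC, 152, 126 and 92.3 at 2% RWC, and 637, 545 and 354 after rehydration. It fell by 2.08 at 60% RWC (SE 0.47, adjusted p = 0.00531), with a log2 fold of 0.01 at 2% against 60% RWC (adjusted p = 0.987).

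All 4 contigs of the minor photosystem II antenna fell at 60% RWC. CP24 (Cp_V2_contig_1048) had 826, 996 and 590.3 RPKM in fresh libraries, 98.5, 116 and 131 at 60% RWC, 108, 104 and 87.6 at 2% RWC, and 1267, 1088 and 879 after rehydration. The fresh and rehydrated libraries overlapped, and both dry states lay below them. CP24 fell by 2.69 at 60% RWC (SE 0.22, adjusted p = 5.27e-06), 6.46-fold lower. CP26 (Cp_V2_contig_164) had 2532, 2514 and 1468 RPKM in fresh libraries, 454, 437 and 512 at 60% RWC, 215, 197 and 126 at 2% RWC, and 2295, 2168 and 1153 after rehydration. It was the 1 member of this group to fall again between 60% and 2% RWC, by 1.27 (SE 0.31, adjusted p = 0.00575), after a log2 fold of -2.12 at 60% RWC against fresh (SE 0.31, adjusted p = 0.000341). CP29 (Cp_V2_contig_743) fell by 1.64 at 60% RWC (SE 0.25, adjusted p = 0.000396), and the other CP29 contig Cp_V2_contig_3491 by 1.34 (SE 0.22, adjusted p = 0.000806). The Lhcb7 contig Cp_V2_contig_15024 was at a low level, 20.6, 17.0 and 26.5 RPKM in fresh libraries, 3.23, 4.01 and 3.86 at 60% RWC, 3.58, 4.19 and 3.34 at 2% RWC, and 20.7, 16.7 and 18.1 after rehydration. It fell by 2.44 at 60% RWC (SE 0.24, adjusted p = 1.88e-05).

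Photosystem I antenna contigs fell at 60% RWC in 16 of 16, with log2 folds of -1.49 to -3.51. The lowest fold was in Lhca3, which sits beside Lhca2 on photosystem I. Cp_V2_contig_109 had 1238, 1254 and 825 RPKM in fresh libraries, 86.4, 89.96 and 95.4 at 60% RWC, 88.6, 74.7 and 76.5 at 2% RWC, and 1169.9, 1054 and 787 after rehydration. Its log2 fold at 60% RWC was -3.51 (SE 0.22, adjusted p = 8.56e-07), 11.4-fold lower, with no overlap. Cp_V2_contig_1767 (Lhca3) fell by 3.33 (SE 0.19), while the other 3 Lhca3 contigs, at lower fresh levels, had log2 folds of -1.53 to -1.59. The contigs classed as Lhca2, which include the contig at the highest mean level of this antenna, fell in 4 of 4. That contig, Cp_V2_contig_296 of uncertain class, had 2805, 3818 and 1600.5 RPKM in fresh libraries, 384, 432 and 513 at 60% RWC, 547, 488 and 392 at 2% RWC, and 3353, 2937 and 2766 after rehydration. It fell by 2.51 at 60% RWC (SE 0.27, adjusted p = 3.61e-05).

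The 3 Lhca4 contigs, of the protein that forms a pair with Lhca1 on photosystem I, differed in the second step of drying. Cp_V2_contig_1257 had 316, 416 and 181 RPKM in fresh libraries, 56.3, 49.6 and 66.5 at 60% RWC, 10.1, 8.82 and 5.84 at 2% RWC, and 302, 254 and 171 after rehydration. It fell by 2.68 at 2% against 60% RWC (SE 0.32, adjusted p = 7.55e-05), and Cp_V2_contig_538 had a log2 fold of -2.08 (SE 0.40, adjusted p = 0.00155). Cp_V2_contig_576, at the highest level of the 3, had 889, 1927 and 568 RPKM in fresh libraries, 255, 265 and 302 at 60% RWC, 419.5, 369 and 299.8 at 2% RWC, and 1711, 1700.3 and 1221 after rehydration. Its log2 fold at 2% against 60% RWC was 0.52 (SE 0.32, adjusted p = 0.210), but without fresh library 3, which enters the shared estimate of spread, and in a fit of the 2 states alone it was called higher (adjusted p from 0.000417 to 0.388 over the alternatives). Lhca5 and Lhca6, which in Arabidopsis join photosystem I to the NDH complex of cyclic electron flow, were at low levels and fell at 60% RWC in 4 of 4 contigs. Lhca5 (Cp_V2_contig_26828) had 17.9, 14.3 and 19.9 RPKM in fresh libraries, 3.58, 3.02 and 4.75 at 60% RWC, 2.02, 1.92 and 1.49 at 2% RWC, and 34.4, 26.7 and 21.4 after rehydration. It fell by 2.11 at 60% RWC (SE 0.26, adjusted p = 0.000105) and again by 0.94 at 2% against 60% RWC (SE 0.27, adjusted p = 0.0155). The second of these calls was lost without library 3 of either dry state, with adjusted p from 0.00553 to 0.0683. Lhca6 (Cp_V2_contig_6232) fell by 1.92 at 60% RWC (SE 0.18, adjusted p = 1.38e-05). The plot of levels of other members shows these contigs beside the minor antenna.

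**Figure D4:**
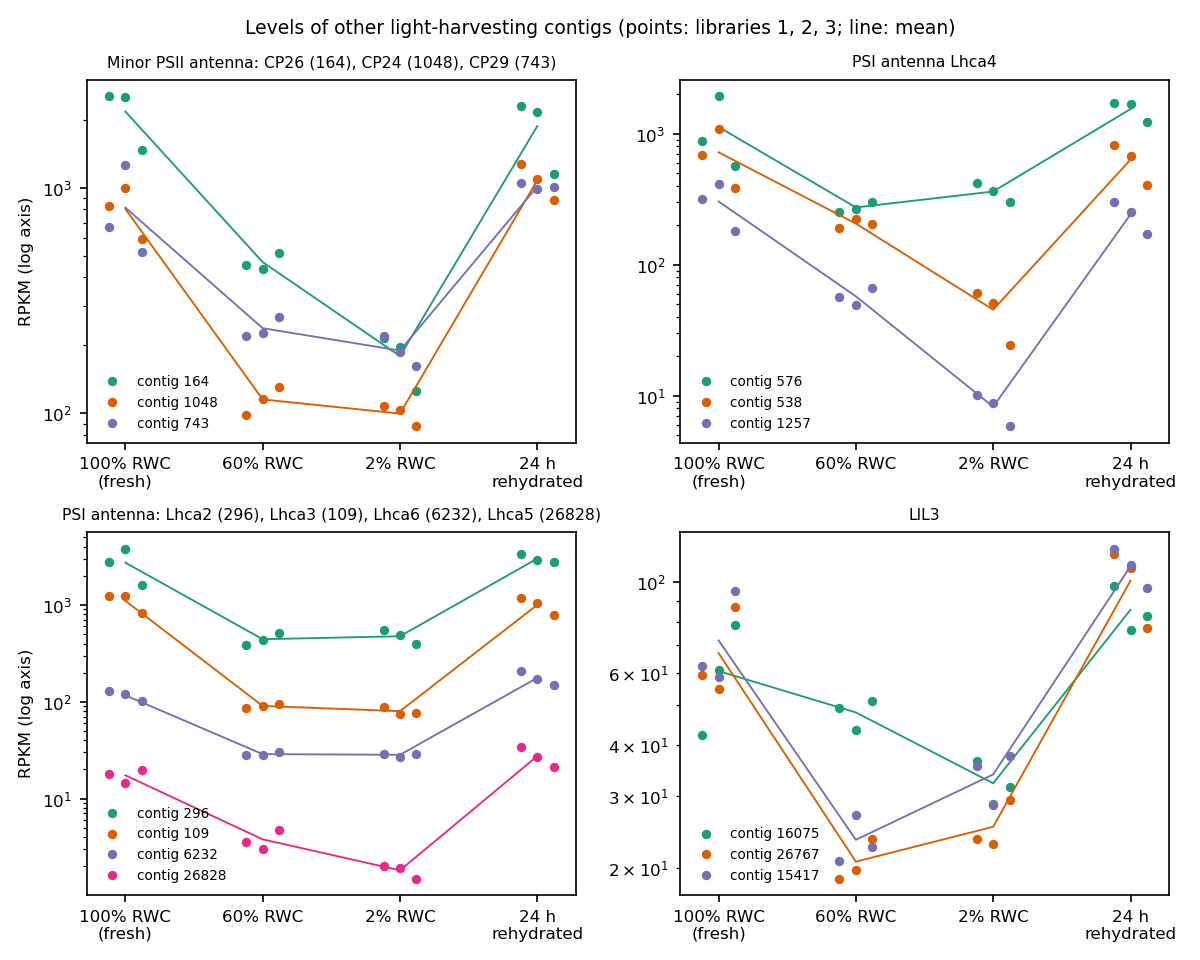
RPKM (log axes) by state of minor photosystem II antenna contigs, Lhca4 contigs, 1 contig each of Lhca2, Lhca3, Lhca5 and Lhca6, and 3 LIL3 contigs; points are libraries 1, 2 and 3 from left to right and lines join the means. Lhca4 Cp_V2_contig_538 and Cp_V2_contig_1257 drop again at 2% RWC while Cp_V2_contig_576 does not, and LIL3 Cp_V2_contig_16075 lies inside its fresh range of 42.3 to 78.5 RPKM at 60% RWC.

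In the later step of drying, 2 members rose. Lhca3 Cp_V2_contig_1767 had 45.4, 35.8 and 41.4 RPKM at 2% RWC, against 26.2, 27.4 and 30.2 RPKM at 60% RWC, with no overlap (log2 fold 0.66, SE 0.18, adjusted p = 0.0101). It still lay far below its fresh level of 288, 383 and 243 RPKM. LIL3 Cp_V2_contig_15417 had 35.4, 28.5 and 37.6 RPKM at 2% RWC, against 20.8, 27.0 and 22.5 RPKM at 60% RWC (log2 fold 0.64, SE 0.23, adjusted p = 0.0411). The call on this LIL3 contig was lost without library 1 or 3 of either dry state, without library 1 or 2 of the rehydrated state, with library totals only and with the replicate number as a block (adjusted p = 0.0600), and its adjusted p ran from 0.00183 to 0.130 over the alternatives.

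LHC-like contigs had smaller folds in drying than most antenna contigs. LIL3, which in Arabidopsis anchors an enzyme of chlorophyll synthesis in the thylakoid, was lower in 4 of 6 contigs at 60% RWC and in 6 of 6 at 2% RWC. Cp_V2_contig_16075, the LIL3 contig at the highest mean level, had 42.3, 61.04 and 78.5 RPKM in fresh libraries, 49.3, 43.4 and 51.3 at 60% RWC, 36.4, 28.6 and 31.5 at 2% RWC, and 97.9, 76.4 and 82.4 after rehydration. At 60% RWC it lay inside the fresh range (log2 fold -0.22, SE 0.21, adjusted p = 0.420), and at 2% RWC below it (log2 fold -0.69, SE 0.21, adjusted p = 0.0133). The second call was lost without fresh library 3, without library 2 of 2% RWC and in a fit of the 2 states alone, at an adjusted p of up to 0.0744 over its alternatives. Over the 8 LHC-like contigs the median log2 fold at 60% RWC was -0.94, against -1.80, -1.88 and -2.02 for LHCII trimer, minor and photosystem I antenna contigs, and the difference between these groups was not tested. OHP2 is needed in Arabidopsis for the assembly of photosystem II. Its contig Cp_V2_contig_27940 was not called in drying (log2 folds -0.80 and -0.51 at 60% and 2% RWC against fresh, adjusted p = 0.0744 and 0.194). The other, Cp_V2_contig_11763, was called lower at 60% RWC (log2 fold -1.01, adjusted p = 0.0430), but with reads unique to it the log2 fold was -0.61 and not called (adjusted p = 0.245, over all its alternatives 0.000576 to 0.245). That call was lost in 13 of 19 alternatives, among them leaving out any 1 library of 60% or 2% RWC, fresh library 1 or 3 or rehydrated library 2 or 3, the fit of the 2 states alone and the replicate block (adjusted p = 0.0583).

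After 24 h under water nearly all members were higher than at 2% RWC. Of 41 members 37 were called higher and 1 lower, at backgrounds of 31.1 and 25.4% of tested contigs. The median log2 fold was 1.99 for members and 0.13 over all tested contigs, and 37 members had all rehydrated libraries above all 2% RWC libraries (90.2%, against 47.6%). All 16 photosystem I antenna, 4 minor antenna, 8 LHC-like and 5 Lhcb2 contigs, Lhcb3 and Lhcb7 rose, and so did 2 of 6 Lhcb1 contigs. The largest rises were those of Cp_V2_contig_5361 by a log2 fold of 6.33 (SE 0.81, adjusted p = 6.10e-05), Cp_V2_contig_175 by 6.06 (SE 0.74) and Cp_V2_contig_269 by 6.04 (SE 0.74). Among photosystem I antenna contigs, Lhca4 Cp_V2_contig_1257 rose by 4.48 (SE 0.34), Lhca5 by 3.52 (SE 0.28), Lhca3 Cp_V2_contig_109 by 3.26 (SE 0.22) and Lhca2 Cp_V2_contig_296 by 2.28 (SE 0.27). CP24 rose by 3.04 (SE 0.23, adjusted p = 1.61e-06) and CP26 by 3.00 (SE 0.32, adjusted p = 1.67e-05). LIL3 contigs rose by 0.89 to 1.99 in 6 of 6.

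Of the 4 Lhcb1 contigs that stayed abundant in dry leaves, 0 were called higher on rewatering by edgeR (0 at an unadjusted p below 0.05, and 0 by DESeq2). Cp_V2_contig_159 had 2411, 2152 and 1236 RPKM in rehydrated leaves, against 2259, 2042 and 1344 RPKM at 2% RWC, an overlapping range (log2 fold -0.35, SE 0.47, adjusted p = 0.549). Cp_V2_contig_8281 and Cp_V2_contig_2461 were not called either (log2 folds -0.24 and -0.97, adjusted p = 0.686 and 0.107). Cp_V2_contig_172 was called lower, with 1588, 1355 and 908 RPKM in rehydrated leaves, against 2862, 2582 and 1630.2 RPKM at 2% RWC, and the ranges lay close without overlap (log2 fold -1.26, SE 0.48, adjusted p = 0.0405). This call was lost without any 1 library of 60% RWC or of rehydrated leaves, without library 1 or 2 of 2% RWC and with library totals only, with adjusted p from 0.000638 to 0.146.

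In rehydrated leaves the members called different from fresh leaves were LHCII contigs. Of 41 members 8 were called lower than in fresh leaves and 0 higher by edgeR, at backgrounds of 5.69 and 3.71% of tested contigs. At an unadjusted p below 0.05, 11 were lower and 2 higher, and DESeq2 called 11 lower and 1 LHC-like contig higher. All 8 were LHCII trimer contigs, 5 of 6 Lhcb1 and 3 of 5 Lhcb2, and the log2 folds of all Lhcb1 and Lhcb2 contigs lay between -1.61 and -2.57. Among photosystem I antenna, minor antenna and LHC-like contigs 0 of 16, 0 of 4 and 0 of 8 were called, and at an unadjusted p below 0.05 a count of 0 was lower in each group and 1, 0 and 1 were higher. The median log2 fold was -0.19 for members and -0.06 over all tested contigs.

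This comparison rests on the fresh and rehydrated libraries singly. The count of LHCII trimer contigs called lower was 4 without fresh library 1, 6 without fresh library 2 and 12 without fresh library 3. It was 4 without rehydrated library 1, 0 without rehydrated library 2 and 1 without rehydrated library 3, and 0 in a fit of these 2 states alone, where 179 of all tested contigs were lower and 201 higher. Lhcb2 Cp_V2_contig_95 had 426, 288 and 265 RPKM in rehydrated leaves, against 1349, 1888 and 497 RPKM in fresh leaves with no overlap (log2 fold -2.08, SE 0.41, adjusted p = 0.0114). Lhcb2 Cp_V2_contig_2961 (log2 fold -2.01, SE 0.42, adjusted p = 0.0150) and Cp_V2_contig_668 (log2 fold -1.99, SE 0.42, adjusted p = 0.0157) also had all rehydrated libraries below all fresh ones. Over their alternatives the adjusted p of these 3 Lhcb2 contigs reached 0.128, 0.146 and 0.147. The 5 called Lhcb1 contigs all overlapped with fresh library 3. Among them Cp_V2_contig_5361 had 196, 135 and 131 RPKM in rehydrated leaves, against 927, 1447 and 122 RPKM in fresh leaves (log2 fold -2.57, SE 0.65, adjusted p = 0.0307; up to 0.191 over the alternatives). Cp_V2_contig_159 had a log2 fold of -2.22 (SE 0.49, adjusted p = 0.0190; up to 0.168), and the call on Cp_V2_contig_1704 (log2 fold -1.96, adjusted p = 0.0380) was lost in 14 of 19 alternatives. In RPKM 3 members had all rehydrated libraries below all fresh ones (7.32%, against 8.55% of tested contigs), the Lhcb2 contigs just named, and 7 had them all above (17.1%, against 14.8%).

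Outside LHCII edgeR called 0 members different between rehydrated and fresh leaves. CP24 had 1267, 1088 and 879 RPKM in rehydrated leaves, against 826, 996 and 590.3 RPKM in fresh leaves (log2 fold 0.26, SE 0.21, adjusted p = 0.469). Lhca2 Cp_V2_contig_296 had a log2 fold of -0.01 (SE 0.26), Lhca3 Cp_V2_contig_109 of -0.31 (SE 0.20) and Lhca4 Cp_V2_contig_576 of 0.33 (SE 0.32), none of them called. Without fresh library 2, Cp_V2_contig_576 was called higher and the Lhcb7 contig Cp_V2_contig_15024 lower, and without fresh library 3 Lhcb3 Cp_V2_contig_1514 was called lower. The 7 members with all rehydrated libraries above all fresh ones were 3 LIL3 contigs, 2 Lhca6 contigs, Lhca5 and OHP2 Cp_V2_contig_27940, and edgeR called none of them. Lhca6 Cp_V2_contig_6232 had 208, 174 and 148 RPKM in rehydrated leaves, against 129, 119 and 101 RPKM in fresh leaves (log2 fold 0.42, SE 0.18, adjusted p = 0.157).

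The make-up of the family's reads therefore differed between the states. Lhcb1 contigs took 31.5, 33.6 and 17.9% of light-harvesting reads in fresh libraries, 45.2, 43.7 and 42.9% at 60% RWC, 53.5, 53.98 and 48.5% at 2% RWC, and 13.02, 12.7 and 10.9% after rehydration. These ranges did not overlap between any states, and the share was highest in the driest leaves. Lhcb2 contigs took 18.4, 21.9 and 11.6% in fresh libraries, 10.9, 11.7 and 11.2% at 60% RWC, 2.09, 2.11 and 1.72% at 2% RWC, and 9.02, 6.86 and 8.65% after rehydration. The share of Lhcb2 was therefore lowest in the driest leaves. Photosystem I antenna contigs took 22.6 to 32.7% in fresh libraries, 19.4 to 20.6% at 60% RWC, 22.7 to 26.0% at 2% RWC and 38.4 to 41.5% after rehydration. The minor antenna took 18.1 to 33.0% in fresh libraries, 19.5 to 20.7% at 60% RWC, 15.8 to 17.4% at 2% RWC and 33.1 to 35.4% after rehydration. Shares within a total move each other and follow reads, not molecules, since longer contigs yield more reads. The plot of the make-up by library shows these shares.

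**Figure D5:**
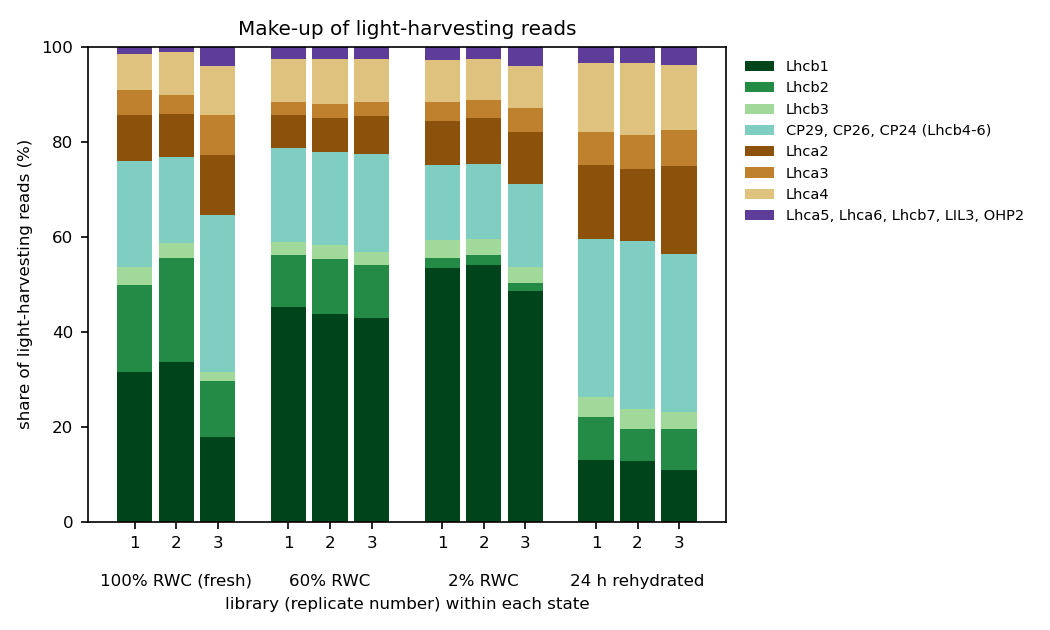
Share of all light-harvesting reads (%, vertical axis) by protein class in each of the 12 libraries (bars, grouped by state). Lhcb1 takes 48.5 to 53.98% at 2% RWC and 10.9 to 13.02% after rehydration, and Lhcb2 shrinks to about 2% at 2% RWC.

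Genes that act around the antenna took different courses, and their counts are read against all tested contigs, of which 23.3% were lower and 15.6% higher at 60% RWC, and 25.4% lower and 31.1% higher on rewatering. Photosystem core proteins, the reaction centres that the antenna serves, were lower in 35 of 45 contigs at 60% RWC and higher in 0 by edgeR (36 and 0 at an unadjusted p below 0.05, 35 and 0 by DESeq2), with a median log2 fold of -1.38. On rewatering 35 were higher and 5 lower than at 2% RWC (median 1.35), and after rehydration 1 was higher than in fresh leaves. Of the early light-induced and DSP-22 contigs, relatives of the antenna proteins that protect from excess light, 25 of 30 were higher and 4 lower at 60% RWC, and 25 were lower and 5 higher after rehydration than at 2% RWC. Their share of reads was 0.00497 to 0.0186% in fresh leaves, 0.497 to 0.611% at 60% RWC, 1.16 to 2.14% at 2% RWC and 0.0756 to 0.102% after rehydration, so at 2% RWC it exceeded that of the 41 antenna members in every library. After rehydration 26 of these 30 were higher than in fresh leaves, against 3.71% of all tested contigs. PsbS is the protein through which excess light energy is released as heat. Of its several contigs, Cp_V2_contig_886 is named for the largest called fold of its list, and the others are not given singly. That contig had 13.7 ± 0.908 RPKM at 60% RWC and 445 ± 268 RPKM in fresh leaves (SD, n = 3 each; log2 fold -4.98, SE 0.54, adjusted p = 4.17e-05). It rose to 398 ± 124 RPKM in rehydrated leaves, against 14.8 ± 2.33 RPKM at 2% RWC (log2 fold 4.36, SE 0.53). PsbS belongs to a list of antenna regulation with the kinases STN7 and STN8 and the xanthophyll cycle enzymes, in which 12 of 37 contigs were lower and 7 higher at 60% RWC and 8 lower and 9 higher on rewatering, shares near the background. STN7 phosphorylates LHCII. Its contig at the highest level, Cp_V2_contig_310, had 70.2 ± 3.34 RPKM at 60% RWC and 127 ± 72.5 RPKM in fresh leaves and was not called (adjusted p = 0.130). It was lower at 2% RWC, with 42.6 ± 2.47 RPKM (log2 fold -1.40 against fresh, SE 0.40, adjusted p = 0.00966).

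Genes that deliver antenna proteins to the thylakoid, listed together with ALBINO3-like genes, were not called lower at 60% RWC. The 14 contigs were of the chloroplast signal recognition particle pathway, LHCP TRANSLOCATION DEFECT and ALBINO3-like proteins 1 and 2. None was described as ALBINO3 itself, and a role of the ALBINO3-like contigs in antenna insertion was not tested. Of the 14, 6 were higher and 0 lower at 60% RWC by edgeR (9 and 0 at an unadjusted p below 0.05, 6 and 0 by DESeq2). The median log2 fold was 0.81, and 1 was higher and 4 lower on rewatering. The 6 of 14 stand against the 15.6% of all tested contigs that were higher at 60% RWC. ALBINO3-like protein 1 (Cp_V2_contig_19383) had 93.6 ± 5.28 RPKM at 60% RWC and 32.6 ± 26.1 RPKM in fresh leaves (log2 fold 1.69, SE 0.40, adjusted p = 0.00629). Another list held 20 contigs of chlorophyll breakdown and chlorophyll b turnover. They were described as pheophytinase, STAY-GREEN types, pheophorbide a oxygenase, chlorophyllide a oxygenase and chlorophyll b reductases, and none as a protease of antenna proteins. Of the 20 contigs 9 were higher and 1 lower at 60% RWC, where the same background of 15.6 and 23.3% applies. At 2% RWC 5 were higher and 6 lower than in fresh leaves (26.0 and 34.9% of all tested contigs), and on rewatering 5 were higher and 8 lower (31.1 and 25.4%). Among them STAY-GREEN is the enzyme that takes magnesium from chlorophyll a. Of its several contigs, Cp_V2_contig_25829, with the largest called fold of the list, had 31.6 ± 5.89 RPKM at 60% RWC and 3.24 ± 3.49 RPKM in fresh leaves (log2 fold 3.30, SE 0.65, adjusted p = 0.00225). Pheophorbide a oxygenase opens the chlorophyll ring. Its contig at the highest level, Cp_V2_contig_215, had 190.8 ± 9.29 RPKM at 60% RWC and 66.5 ± 19.2 RPKM in fresh leaves (log2 fold 1.65, SE 0.18, adjusted p = 4.58e-05). It then fell to 45.6 ± 6.78 RPKM at 2% RWC (log2 fold -1.95 against 60% RWC, SE 0.19, adjusted p = 1.77e-05), a level not called different from fresh leaves (adjusted p = 0.158). Transcription factors known to control photosynthesis genes (GLK, HY5, PIF and GATA types) were lower in 6 of 25 contigs and higher in 0 at 60% RWC by edgeR (9 and 0 at an unadjusted p below 0.05, 8 and 0 by DESeq2), and 13 were higher and 2 lower on rewatering. The share called lower at 60% RWC was near the background of 23.3%. A contig of PIF1-like (Cp_V2_contig_33945), a phytochrome-interacting factor, had 0.869 ± 0.724 RPKM at 60% RWC and 7.32 ± 4.86 RPKM in fresh leaves (log2 fold -2.92, SE 0.70, adjusted p = 0.00706).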

How the data were processed

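Per the labels' protocols, stranded libraries of total leaf RNA were sequenced as paired ends of 75 bases. Mapper, strand setting and the counting of read pairs: not given in the sources used here. Deposited by the authors are whole-number read counts per contig, including reads that match several contigs, with a second set of counts of unique reads, and RPKM values, which recomputation from counts, length and library total matched within 1.6e-08. Tests used the deposited counts in R 4.3.3 with edgeR 4.0.16: scaling by TMM, with factors of 0.863 to 1.19, a filter (filterByExpr by state, at least 10 counts and 15 in total), robust quasi-likelihood dispersions and 1 fit of 12 libraries with a mean per state. The filter left 46494 contigs, over which p-values of 5 comparisons and of the test across states were adjusted (Benjamini-Hochberg, two-sided, threshold 0.05). An SE is the log2 fold's size over the square root of F. The procedure was also run on counts simulated with the same spread in every state for a given contig. That run cannot check how a wider spread between fresh pools affects the calls. Alternatives were DESeq2 1.42.0, RLE factors, library totals, no filter, unique reads, a replicate block, 2-state fits and leaving out each library. Named contigs were the highest-level contig of each class, the 3 called contigs with the largest fold per comparison and contigs called against the majority; other contigs named were added after their values were seen. For lists beside the family the rule took the called contig with the largest fold and the contig at the highest level, and some are left out of the text. The members, lists and most tests were chosen with earlier results of these data known.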

Additional observations from a re-analysis of the deposited data

How the results depend on the processing

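Of the 115 results for named contigs, 2185 values were computed under alternatives, and 0 changed the sign of a called fold. The sign differed in 27 values of 12 results called in neither setting, with log2 folds of -0.37 to 0.18 as reported. On leaving out a library 1294 kept their side of the threshold, 74 lost a call and 12 gained one. Under other settings 776 kept it, 21 lost a call and 8 gained one. Members called lower at 60% against 100% RWC numbered 32 to 37 over all alternatives, and 34 to 39 at 2% against 100% RWC. The 2 members higher at 2% against 60% RWC became 1 with library totals, 6 in a fit of the 2 states alone, and 1 to 4 on leaving out a library. The 1 member lower after rehydration than at 2% RWC became 0 with library totals, 2 in the 2-state fit, and 0 to 2. The 8 members (all LHCII trimer) lower after rehydration than in fresh leaves became 0 in the 2-state fit and 0 to 12, and the 0 higher became 1 with DESeq2, 1 with library totals, and 0 to 1; the cause was not tested. In the 2-state fit, all tested contigs called lower and higher numbered 179 and 201 for rehydrated against fresh leaves (2646 and 1727 in the shared fit), and 7316 and 4450 at 60% against 100% RWC (10848 and 7241). Library totals moved the median log2 fold of all contigs to 0.51 (0.13 with TMM) for rehydrated against 2% RWC, where 7818 were then lower and 18437 higher (11796 and 14459), and to 0.11 (-0.06) for rehydrated against fresh, with 1905 lower and 2247 higher. No label says that a replicate number pairs pools of different states. Same-numbered deviations correlated at -0.129 to 0.236, over 0.1 in 3 of 18, and these values cannot decide whether pools were paired. With the replicate block 1 member was called higher at 2% against 60% RWC, and among named contigs the calls of Cp_V2_contig_5361 and Cp_V2_contig_1704 for rehydrated against fresh leaves, of Cp_V2_contig_11763 at 60% against 100% RWC and of Cp_V2_contig_15417 at 2% against 60% RWC were lost; it changed no other call of a named contig. Depth limits the deepest falls, on 6 to 16 reads per library for Cp_V2_contig_5361 and Cp_V2_contig_1704 at 2% RWC.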

Other observations

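One further contig, Cp_V2_contig_311, carries a description of a chlorophyll a/b binding protein spelled with a space before the slash, which the words used for the family miss, and it was looked at after the data were seen. It had 704, 1383 and 477 RPKM in fresh libraries, 169, 200.4 and 211 at 60% RWC, 220.2, 198 and 186 at 2% RWC, and 1183, 1130.3 and 857 after rehydration. It fell by 2.00 on the log2 scale at 60% RWC against fresh (SE 0.29, adjusted p = 0.000304) and rose by 2.00 after rehydration against 2% RWC (SE 0.29, adjusted p = 0.000137). Rehydrated against fresh, its log2 fold was 0.17 and not called (adjusted p = 0.741).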
